A study of Mus musculus with 14 samples.

Results

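The p53 pathway was followed in 35 genes, namely p53 itself (Trp53), its regulators Mdm2 and Mdm4 and 32 genes known as p53 targets. They were taken from the tables by gene name, and all 35 of 35 were found among the 55889 genes counted without DSS and the 54721 genes counted after DSS. The question put to them was whether the raised level of Lncpint, a long noncoding RNA known to be induced by p53, goes with a p53 response in mice without MiR-29ab1.

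RNA was sequenced from intestine of C57BL/6N mice of 2 genotypes, WT and MiR-29ab1-/-, the latter carrying a germline deletion of the miR-29a and miR-29b-1 cluster in every cell. Without dextran sulfate sodium (DSS), a salt that injures the gut lining when given in drinking water, there were 4 WT and 4 MiR-29ab1-/- mice. After 3 days of 3.5% DSS there were 3 WT and 3 MiR-29ab1-/- mice, and the methods describe adult littermates matched for age and sex. As tissue, the labels give small intestinal crypts but the methods give the colon, and the samples are called intestinal tissue here.

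p53 is a transcription factor that is made and destroyed continuously, because its target Mdm2 marks it for degradation while Mdm4 holds its activity down. DNA damage and other stress release it from both, and it then switches on genes that stop the cell cycle, trigger apoptosis, repair DNA and adjust metabolism. Since most of the control acts on the protein, the RNA of its targets, above all Cdkn1a and Mdm2, is the usual readout of its activity. In the gut, p53 and its apoptotic target Bbc3 are known for the death of crypt cells after irradiation.

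Between 14231157 and 23153149 reads per mouse fell on genes. The precursor genes Mir29a and Mir29b-1 had at most 1 read in any mouse of either genotype, so these libraries give no check of the deletion. CPM are read counts scaled to the depth of each library. The 10 markers of colon epithelium (Car1, Slc26a3, Aqp8 and others) summed to at least 4465 CPM in every mouse. Epcam, Vil1, Cdh1 and Muc2 are among them and are not particular to the colon. The 6 markers of the small intestine summed to at most 653 CPM, and smooth muscle markers to at most 2.10 CPM. These sums of unlike lists do not tell which part of the intestine was sampled. Mitochondrial genes took 5.72% to 20.2% of the reads, the most in MiR-29ab1-/- mouse 2 after DSS, which also had the lowest scaling factor (0.767). The mice given DSS are numbered as in the count columns, which do not carry the mouse numbers of the labels.

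The sequence p53 binds is shown first, with the members in which a match to it was found. A p53 response element consists of 2 repeats of 10 bases, each with a C and a G around 2 A or T bases. RefSeq promoter windows on GRCm38.p6, from 250 bases before a transcript start to 50 after it, were given for 27 of the 35 genes. An element with no gap, with every such C and G in place and at most 3 mismatches in 20 bases, was found in 8 of the 27. Among all 27025 genes with a window, 1.63% had one. The consensus reads the same on both strands. Each line gives the element with 5 bases on either side, on the strand of the gene, with the 4 central bases of each repeat in capitals.
Cdkn1a: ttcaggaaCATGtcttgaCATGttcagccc
Ccng1: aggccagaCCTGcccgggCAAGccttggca
Rps27l: atggcgggCTTGttgagaCTTGtccgggcg
Bbc3: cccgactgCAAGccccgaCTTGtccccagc
Trp53: cggaaggaCTTGcccttaCTTGttatggcg
Tigar: gcggcggtCTAGctctggCAAGactccagg
Sesn1: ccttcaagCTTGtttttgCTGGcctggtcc
Aen: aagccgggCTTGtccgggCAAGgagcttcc

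The first 3 differed from the consensus at 1 base and the other 5 at 3 bases. The lines for Cdkn1a (chr17:29090923-29090952, + strand), Ccng1 (chr11:40755457-40755486, − strand), Trp53 (chr11:69580279-69580308, + strand) and Tigar (chr6:127109741-127109770, − strand) lay outside every annotated transcript of their gene in GENCODE vM21. Those of Bbc3 (chr7:16309481-16309510, + strand), Sesn1 (chr10:41887261-41887290, + strand) and Rps27l (chr9:66946291-66946320, + strand) lay in an intron of at least 1 transcript, and that of Aen (chr7:78895932-78895961, + strand) in an exon. Allowing a gap of up to 13 bases but no mismatch, the element was found in 0.0731% of all 32851 windows and in 1 window of the 35 genes. A match is a description of the letters and not a measured binding site, and the windows do not reach the introns where elements of other targets are known.

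**Figure D1:**
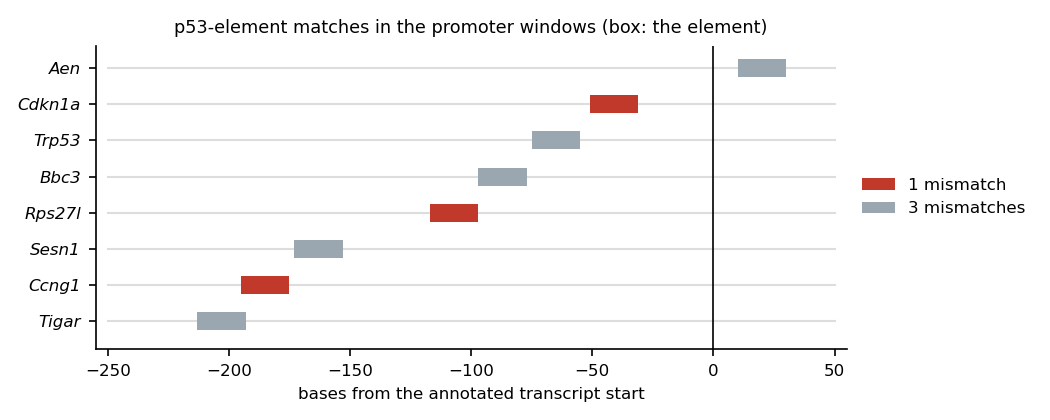
Position of the p53-element match in the promoter window of 8 genes, in bases from the annotated transcript start (0). Each box is the 20-base element, red where it differs from the consensus at 1 base and grey at 3 bases. The matches spread over the window from 213 bases before the start (Tigar) to just after it (Aen).

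As RPKM, which divides the CPM by the gene length in kilobases, the members spanned a wide range of levels in WT mice without DSS. Rps27l, a close relative of a ribosomal protein, stood at 108 ± 17.3 (SD, n = 4), and Perp, a membrane protein of cell junctions with a part in apoptosis, at 98.8 ± 16.9. These neighbours in the order lay within each other's spread. Cdkn1a, which encodes the cell cycle inhibitor p21, stood at 38.8 ± 8.88 and Trp53 at 13.5 ± 0.839, while Mdm2 (9.15 ± 0.804) and Mdm4 (9.50 ± 1.09) lay within each other's spread. The lowest levels were those of Eda2r, a death receptor of the TNF family (0.545 ± 0.241), and Rrm2b, a ribonucleotide reductase subunit (0.881 ± 0.0540).

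Lncpint differed between the genotypes far more than any p53 gene listed here. Without DSS, its level was 0.544, 0.387, 0.855 and 1.20 CPM in the WT mice and 85.9, 162, 105 and 182 CPM in the MiR-29ab1-/- mice. After DSS it was 0.284, 0.659 and 0.534 CPM in WT and 66.1, 68.5 and 33.3 CPM in MiR-29ab1-/- mice. The groups were far apart in both experiments, with a log2 difference of 7.47 ± 0.39 (SE) without DSS and of 6.81 ± 0.42 after DSS (edgeR quasi-likelihood test, adjusted p = 0.000109 and 0.00822). The Lncpint gene lies at chr6:31082565-31220488 on the − strand of GRCm38. The deleted precursors lie on the same strand, Mir29b-1 19472 bases and Mir29a 19818 bases beyond the Lncpint gene. Nothing in the counts tells how much of the signal is Lncpint transcript of normal structure.

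No p53 gene was called between the genotypes without DSS. At an adjusted p under 0.05, edgeR and DESeq2 each called 0 of the 35 members, against 0.0194% of all 15441 genes tested by edgeR. At an unadjusted p under 0.05, both called 1 of 35, against 3.67% of all genes by edgeR. In no member did the CPM of the genotypes fail to overlap, against 2.03% of all genes. The members' median log2 difference was 0.0042, and that of all genes tested −0.0016. For 33 of 35 members the 95% interval of the difference lay within a 2-fold change either way, the exceptions being the scarce Eda2r and Phlda3.

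The core of the pathway showed this in each mouse. Trp53 stood at 58.0, 53.8, 56.4 and 50.3 CPM in WT and 55.4, 56.5, 56.8 and 59.5 CPM in MiR-29ab1-/- mice, with 3 of the 4 knockout values inside the WT range. Mdm2, which encodes the ligase that degrades p53, stood at 42.9, 50.8, 49.2 and 43.1 CPM in WT and 47.7, 50.7, 44.7 and 43.3 CPM in MiR-29ab1-/- mice. Every knockout value of Mdm2 lay inside the WT range, and the interval of the fold was 0.870 to 1.15. Mdm4, the inhibitory partner of Mdm2, stood at 147, 122, 159 and 135 CPM in WT and at 138, 172, 122 and 147 CPM in knockout mice, again overlapping. Cdkn1a stood at 107, 157, 115 and 172 CPM in WT and at 110, 169, 171 and 153 CPM in MiR-29ab1-/- mice. The low values of Cdkn1a were shared by both genotypes, and its log2 difference was 0.14 ± 0.18, with an interval of the fold from 0.836 to 1.44.

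Plk3, a stress-responsive kinase of the polo family, was the member with the smallest p without DSS. Its level was 8.36, 12.2, 10.3 and 17.2 CPM in WT and 17.8, 20.1, 12.6 and 16.6 CPM in MiR-29ab1-/- mice. The highest WT mouse lay among the knockout mice, and the log2 difference of 0.49 ± 0.21 had an unadjusted edgeR p of 0.044 (adjusted p = 1). After DSS, Plk3 stood at 50.6, 50.1 and 54.3 CPM in WT and at 93.8, 144 and 42.7 CPM in MiR-29ab1-/- mice. Of the knockout mice 2 lay above all WT mice and the other below them, with a log2 difference of 0.85 ± 0.44 (unadjusted p = 0.107, adjusted p = 0.683). Without that lowest mouse, MiR-29ab1-/- mouse 3, the log2 difference of Plk3 was 1.19 and passed the test (unadjusted p = 0.000132, adjusted p = 0.0415), which it did with no other mouse left out. Leaving out that mouse also raised the share of all genes at an unadjusted p under 0.05 from 7.23% to 16.6%. The immediate early genes, a programme to which Plk3 also belongs, lay above 0 in all 8 of 8 cases in MiR-29ab1-/- mice in both experiments. Their median log2 difference was 0.25 without DSS and 0.40 after DSS, and edgeR called 0 of them. At an unadjusted p under 0.05 it also called 0, against 3.67% and 7.23% of all genes. The part of these genes in the values of Plk3 was not tested.

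After DSS the genotypes likewise gave no called p53 gene. Of the 34 members tested, edgeR and DESeq2 called 0 at an adjusted p under 0.05, against 0.0134% of all 14908 genes by edgeR. At an unadjusted p under 0.05, edgeR called 3 and DESeq2 2, against 7.23% of all genes by edgeR. In 2 of 34 members the genotypes did not overlap in CPM, against 11.6% of all genes. The members' median log2 difference was 0.020, and that of all genes −0.0051. Eda2r had too few reads to be tested (0.160 to 0.946 CPM), and for 29 of the 34 the interval of the difference lay within a 2-fold change, the exceptions being Phlda3, Btg2, Plk3, Pidd1 and Psrc1.

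Trp53 after DSS stood at 59.0, 38.4 and 34.8 CPM in WT and at 40.1, 30.2 and 38.1 CPM in MiR-29ab1-/- mice. One WT mouse stood well above the other 5 mice. Mdm2 stood at 39.9, 40.9 and 40.3 CPM in WT and at 45.3, 45.6 and 37.7 CPM in MiR-29ab1-/- mice, so that 2 knockout mice lay above and 1 below all WT mice. Mdm4 stood at 66.6, 75.4 and 75.2 CPM in WT and at 73.1, 73.7 and 70.0 CPM in knockout mice, with every knockout value inside the WT range. Cdkn1a stood at 222, 208 and 250 CPM in WT and at 174, 206 and 272 CPM in MiR-29ab1-/- mice, with an interval of the fold from 0.740 to 1.24. The knockout mice thus held both the lowest and the highest Cdkn1a value.

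The 3 members with an unadjusted p under 0.05 after DSS did not move in 1 direction. Apaf1, the core of the apoptosome that activates caspases, stood at 32.1, 47.0 and 51.1 CPM in WT and at 55.01, 60.1 and 57.6 CPM in MiR-29ab1-/- mice. All 3 knockout mice lay above all WT mice, and the log2 difference was 0.40 ± 0.16 (edgeR, unadjusted p = 0.0357, adjusted p = 0.655). Trp53inp1, which promotes p53-dependent death and autophagy, stood at 60.8, 52.0 and 71.3 CPM in WT and at 40.2, 44.2 and 57.3 CPM in MiR-29ab1-/- mice, with the highest knockout mouse inside the WT range. Its log2 difference was −0.38 ± 0.16 (unadjusted p = 0.0421, adjusted p = 0.668). Sesn2, a stress-induced brake on mTORC1, stood at 22.3, 14.4 and 17.8 CPM in WT and at 14.2, 13.8 and 13.8 CPM in MiR-29ab1-/- mice. The knockout mice lay just below the lowest WT mouse, with a log2 difference of −0.39 ± 0.17 (unadjusted p = 0.0483, adjusted p = 0.668). Without WT mouse 1 after DSS the difference was 0.22 for Apaf1 (unadjusted p = 0.068) and −0.21 for Sesn2 (unadjusted p = 0.219).

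**Figure D2:**
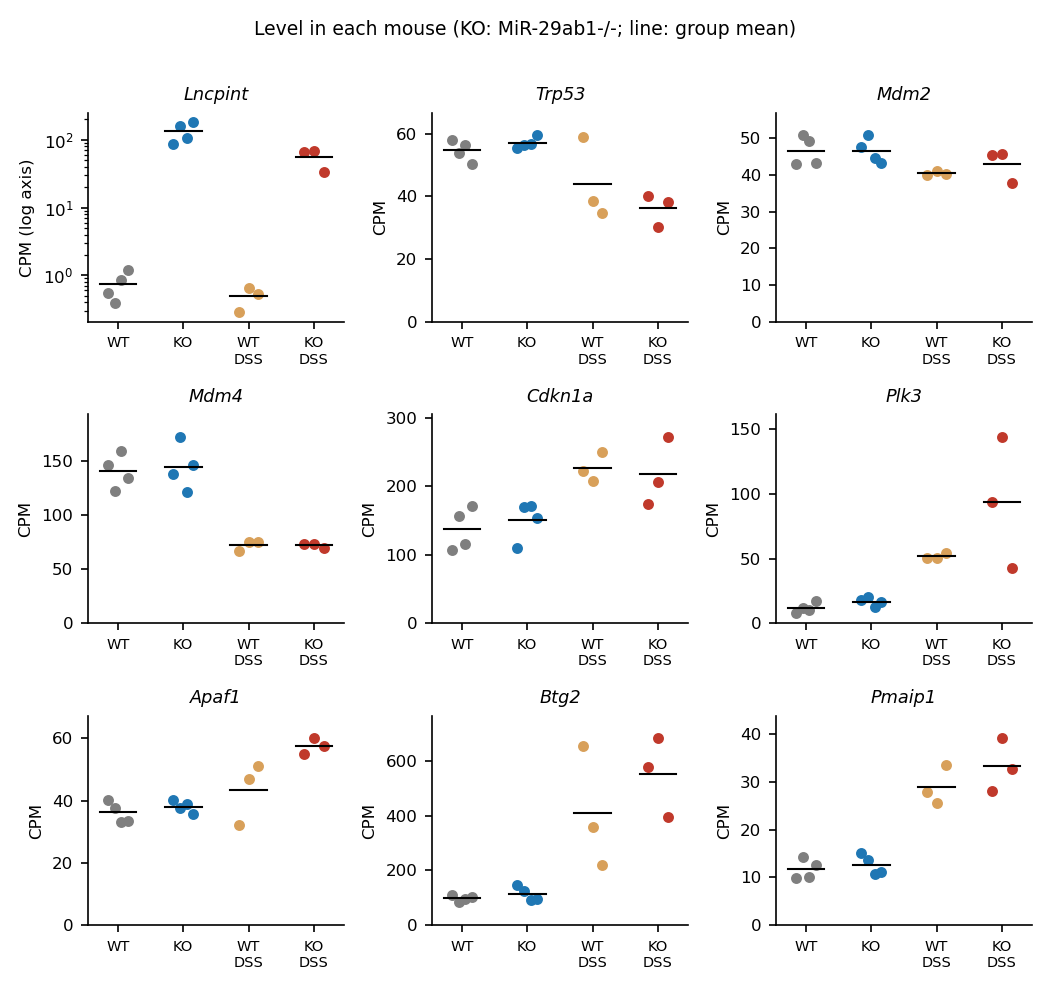
CPM of Lncpint (log axis) and of 8 p53 pathway genes (linear axes from 0) in each mouse of the 4 groups, with a line at the group mean (KO stands for MiR-29ab1-/-). Lncpint separates the genotypes in both experiments, whereas the genotypes of Trp53, Mdm2, Mdm4 and Cdkn1a overlap in both.

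**Figure D3:**
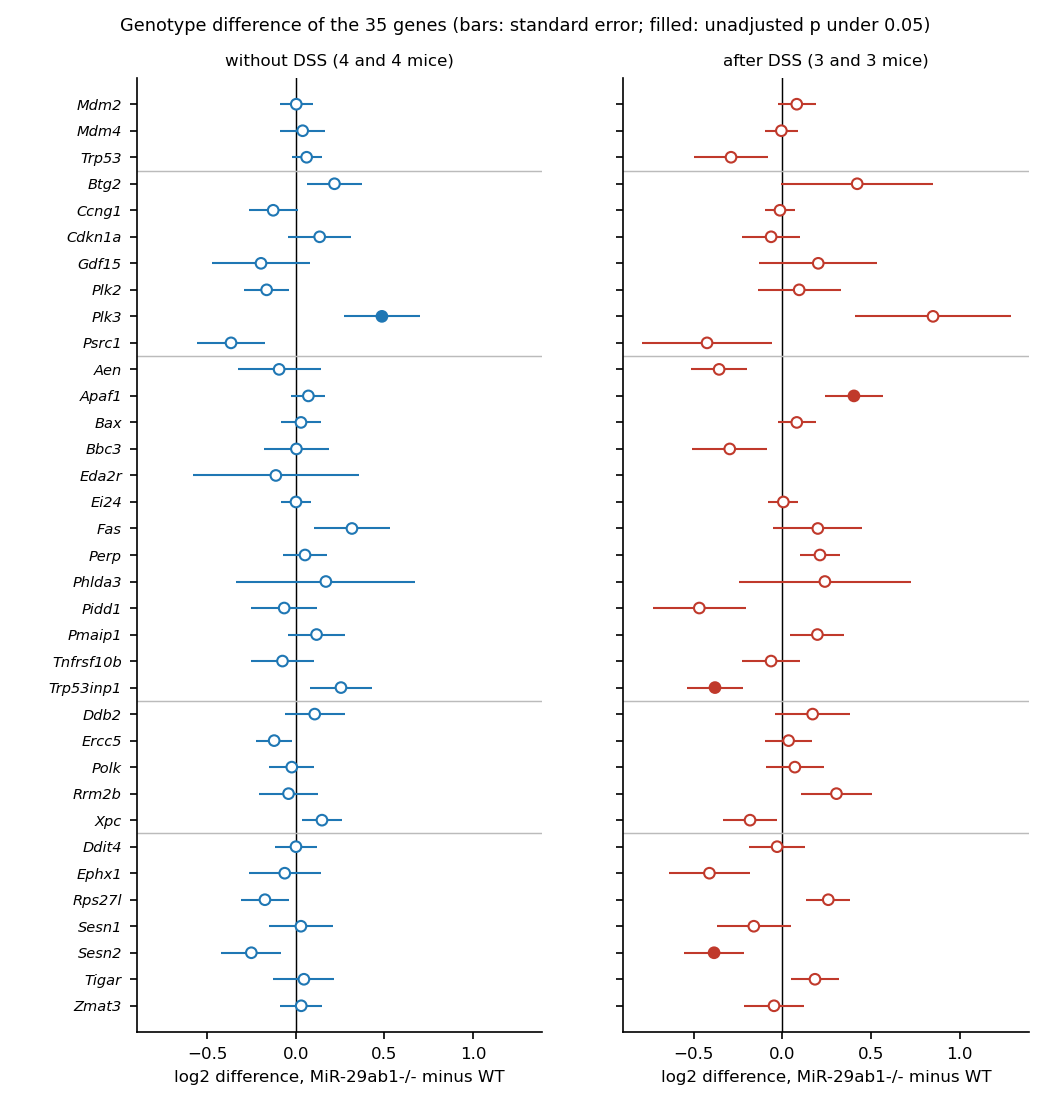
Log2 difference of MiR-29ab1-/- minus WT mice for the 35 genes, without DSS (left) and after DSS (right), with standard errors, in 5 blocks by role (p53 and regulators, cell cycle and growth, cell death, DNA repair, metabolism with redox and RNA). Filled points have an unadjusted p under 0.05, which is Plk3 on the left and Apaf1, Trp53inp1 and Sesn2 on the right, and Eda2r was not tested after DSS.

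By role, the members of the cell cycle and growth lay on both sides of 0 without DSS, with 3 higher and 4 lower in MiR-29ab1-/- mice among 7. Btg2, an antiproliferative gene, had a log2 difference of 0.22 ± 0.16 and Psrc1, a spindle protein, one of −0.36 ± 0.19. Of the 13 members of cell death, 9 lay above and 4 below 0, within a range of −0.11 to 0.32. At the upper end was Fas, the death receptor (0.32 ± 0.22), while Bax, the pore former of the mitochondrial membrane, stood at 0.030 ± 0.11 and Bbc3, the BH3-only protein PUMA, at 0.0042 ± 0.18. The 5 members of DNA repair lay between −0.12 (Ercc5, a nuclease of excision repair) and 0.15 (Xpc, a lesion sensor). The 7 members of metabolism, redox and RNA lay between −0.25 (Sesn2) and 0.046 (Tigar, which lowers glycolytic flux).

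Whether the genotype difference itself changed between the experiments was tested over all 14 mice. edgeR and DESeq2 each called 0 of 35 members at an adjusted p under 0.05, where edgeR called 0% of 16196 genes, and each called 2 at an unadjusted p under 0.05, against 3.96% of all genes by edgeR. These were Trp53inp1 (−0.63 ± 0.27, unadjusted p = 0.0329) and Rps27l (0.44 ± 0.20, unadjusted p = 0.0484), both with an adjusted p of 0.985. Rps27l stood at 75.8, 101, 76.5 and 99.5 CPM in WT and at 91.7, 73.2, 84.1 and 63.5 CPM in MiR-29ab1-/- mice without DSS. After DSS it stood at 148, 160 and 167 CPM in WT and at 212, 201 and 158 CPM in MiR-29ab1-/- mice, so the genotypes overlapped in both experiments.

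Mice given DSS differed from mice without DSS at many p53 genes, in both directions. In WT mice 10 of 35 members rose and 9 fell at an adjusted p under 0.05 (edgeR), where 20.0% of all 16196 genes rose and 17.9% fell. In MiR-29ab1-/- mice 12 rose and 11 fell, where 23.0% of all genes rose and 22.6% fell. Without MiR-29ab1-/- mouse 2 after DSS, the one with the most mitochondrial reads, 10 rose and 9 fell, and the share of all genes called in either direction went from 45.6% to 36.2%. One member that fell in both genotypes, Eda2r, had too few reads after DSS to pass the filter there and entered the fit through the mice without DSS, so that it had to be lower. Without it, 10 rose and 8 fell of 34 in WT mice and 12 rose and 10 fell in MiR-29ab1-/- mice. The median log2 difference of the members was 0.030 in WT and −0.10 in MiR-29ab1-/- mice, against −0.024 and −0.029 for all genes. The mice given DSS came from another experiment and another count table than those without, so DSS and the experiment cannot be told apart. Muc2, the goblet cell mucin, has the same gene length in both tables and averaged 85.7 CPM in WT mice without DSS and 8181 CPM in those after DSS, and for it too DSS and the experiment cannot be told apart. The values for the 2 genotypes are given side by side and are not independent, since they come from 1 fit.

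Of the readouts of p53 activity, Cdkn1a rose in both genotypes. Against the per-mouse values above, all mice given DSS lay above all mice of their genotype without DSS, with a log2 difference of 0.72 ± 0.19 in WT (adjusted p = 0.0102) and 0.53 ± 0.19 in MiR-29ab1-/- mice (adjusted p = 0.0386). The second call was lost when MiR-29ab1-/- mouse 3 after DSS was left out (log2 difference 0.34, adjusted p = 0.2), without MiR-29ab1-/- mouse 1 or 4 of those without DSS (adjusted p = 0.0962 and 0.0632), with no filter on low counts (0.0707) and with at least 10 reads in every library (0.0513). Mdm2 gave −0.20 ± 0.10 in WT (adjusted p = 0.115) and −0.12 ± 0.10 in knockout mice (adjusted p = 0.332). Mdm4 fell in both genotypes, by 0.96 ± 0.12 in WT and 1.00 ± 0.12 in MiR-29ab1-/- mice on the log2 scale (adjusted p = 3.65e-05 and 1.51e-05), and no mouse given DSS reached the lowest mouse without it. Trp53 fell in MiR-29ab1-/- mice, with a log2 difference of −0.66 ± 0.15 (adjusted p = 0.0026), and gave −0.31 ± 0.15 in WT mice (adjusted p = 0.116). Without WT mouse 1 after DSS, the high one, Trp53 fell in WT mice too (−0.57, adjusted p = 0.00268), so the call in 1 genotype rests on that mouse.

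Among the members of the cell cycle and growth, Btg2 and Plk3 rose most. Btg2 went from 110, 84.2, 93.6 and 104 CPM to 655, 358 and 219 CPM in WT, and from 147, 123, 91.6 and 93.9 CPM to 577, 683 and 394 CPM in MiR-29ab1-/- mice. No value after DSS came near those without it, and the log2 differences were 2.07 ± 0.31 and 2.27 ± 0.31 (adjusted p = 0.000325 and 9.92e-05). Plk3, by the values above, rose by a log2 difference of 2.10 ± 0.34 in WT and 2.48 ± 0.34 in MiR-29ab1-/- mice (adjusted p = 0.000609 and 0.00012). Plk2, a relative of Plk3, stood at 26.6, 25.95, 26.9 and 30.5 CPM without DSS and at 20.3, 14.7 and 11.2 CPM after it in WT mice, and at 30.3, 25.6, 21.2 and 20.99 CPM without and 18.5, 18.1 and 12.9 CPM after it in MiR-29ab1-/- mice. Every mouse given DSS lay below the mice of its genotype without it, and Plk2 fell in both genotypes (−0.83 ± 0.19 and −0.57 ± 0.19, adjusted p = 0.00345 and 0.0232), as did Psrc1 (−1.02 ± 0.27 and −1.08 ± 0.28, adjusted p = 0.0084 and 0.00539). Ccng1, a cyclin that recruits phosphatase to Mdm2, and the stress cytokine Gdf15 rose in MiR-29ab1-/- mice (0.34 ± 0.13 and 0.97 ± 0.32, adjusted p = 0.0476 and 0.0219). In WT mice these gave 0.22 ± 0.13 and 0.56 ± 0.32 (adjusted p = 0.203 and 0.176). The call of Ccng1 was lost in 11 of 19 alternatives (adjusted p = 0.0535 to 0.13) and that of Gdf15 in 3, among them without MiR-29ab1-/- mouse 2 after DSS (0.60, adjusted p = 0.162). In MiR-29ab1-/- mice Plk2 was not called without mouse 3 after DSS (−0.42, adjusted p = 0.115) or mouse 1 of those without it (−0.46, adjusted p = 0.0701), and in WT mice Psrc1 was not called without mouse 2 after DSS (−0.79, adjusted p = 0.0517).

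The members of cell death split. Pmaip1, which encodes the BH3-only protein NOXA, stood at 9.89, 14.2, 10.1 and 12.6 CPM without DSS and at 27.9, 25.6 and 33.4 CPM after it in WT mice. In MiR-29ab1-/- mice it stood at 15.1, 13.7, 10.7 and 11.1 CPM without and at 28.1, 39.1 and 32.6 CPM after DSS. Every mouse given DSS thus lay above every mouse without, with log2 differences of 1.31 ± 0.16 and 1.40 ± 0.17 (adjusted p = 3.94e-05 and 1.39e-05). Fas stood at 5.69, 6.13, 5.08 and 5.10 CPM without DSS and at 10.4, 15.4 and 20.7 CPM after it in WT mice, and at 7.56, 5.68, 5.00 and 9.16 CPM without and 14.2, 19.5 and 19.7 CPM after it in MiR-29ab1-/- mice. Again no values overlapped, and Fas rose by 1.49 ± 0.23 and 1.38 ± 0.23 (adjusted p = 0.000252 and 0.000263). For Pmaip1 and Fas the gene length differs between the tables, so part of their difference may lie in the gene models, which was not tested. 

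Perp stood at 156, 207, 178 and 231 CPM without DSS and at 315, 341 and 369 CPM after it in WT mice, and at 197, 185, 224 and 192 CPM without and 404, 419 and 368 CPM after it in MiR-29ab1-/- mice. Ei24, a protein of the endoplasmic reticulum, stood at 96.3, 101, 102 and 108 CPM without and 152, 148 and 144 CPM after DSS in WT mice, and at 112, 100.03, 106 and 90.4 CPM without and 153, 145 and 149 CPM after it in MiR-29ab1-/- mice. For both genes every mouse given DSS lay above every mouse without, with log2 differences of 0.82 ± 0.13 and 0.99 ± 0.13 for Perp and of 0.54 ± 0.085 in each genotype for Ei24, each with an adjusted p of at most 0.000263.

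Apaf1 rose in MiR-29ab1-/- mice (0.59 ± 0.13, adjusted p = 0.00179) and gave 0.26 ± 0.13 in WT mice (adjusted p = 0.131), where it passed without WT mouse 1 after DSS (0.44, adjusted p = 0.00594). In the other direction, Eda2r stood at 1.23 to 5.57 CPM in mice without DSS and at 0.160 to 0.946 CPM after it, where its 3 to 20 reads per mouse did not pass the filter, so its lower level is given as a description. Pidd1, the scaffold of a caspase-activating complex, fell in both genotypes (−0.65 ± 0.22 and −1.05 ± 0.23, adjusted p = 0.0292 and 0.00152), as did Aen, an apoptotic nuclease (−0.61 ± 0.23 and −0.87 ± 0.23, adjusted p = 0.048 and 0.00739). The calls in WT mice were lost for Aen in 12 of 19 alternatives (adjusted p = 0.0527 to 0.173) and for Pidd1 without WT mouse 3 after DSS or WT mouse 1 of those without it (adjusted p = 0.144 and 0.0831). Trp53inp1 fell in MiR-29ab1-/- mice by 0.89 ± 0.19 (adjusted p = 0.0019), from 63.2 to 111 CPM to 40.2 to 57.3 CPM, and gave −0.26 ± 0.19 in WT mice (adjusted p = 0.3). The best known apoptotic targets did not pass the test in either genotype, Bax with 0.19 ± 0.11 and 0.25 ± 0.11 (adjusted p = 0.198 and 0.0874) and Bbc3 with 0.041 ± 0.20 and −0.26 ± 0.20 (adjusted p = 0.893 and 0.319). Neither did Phlda3, an inhibitor of Akt, nor Tnfrsf10b, the TRAIL receptor.

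No member of DNA repair rose with all mice in the fit. Ddb2, the sensor of ultraviolet lesions, stood at 12.5, 9.83, 12.2 and 8.96 CPM without DSS and at 6.01, 5.28 and 5.18 CPM after it in WT mice. In MiR-29ab1-/- mice it stood at 13.2, 12.1, 9.25 and 12.3 CPM without and at 6.93, 5.15 and 6.50 CPM after DSS. All mice given DSS lay below all mice without, and Ddb2 fell by 0.98 ± 0.18 and 0.92 ± 0.18 on the log2 scale (adjusted p = 0.000735 and 0.000773). Polk, a translesion polymerase, fell in both genotypes (−0.53 ± 0.14 and −0.43 ± 0.14, adjusted p = 0.00886 and 0.0216). Ercc5 fell in WT mice (−0.33 ± 0.11, adjusted p = 0.0272) and gave −0.16 ± 0.11 in MiR-29ab1-/- mice (adjusted p = 0.228), while Rrm2b and Xpc passed the test in neither. The call of Ercc5 was lost in 5 of 19 alternatives (adjusted p = 0.0615 to 0.104) and that of Polk in MiR-29ab1-/- mice in 3 (adjusted p = 0.072 to 0.101). Without WT mouse 2 after DSS, Xpc was called higher in WT mice (0.40, adjusted p = 0.0379).

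Among the members of metabolism, redox and RNA, Rps27l rose by 0.84 ± 0.14 in WT and 1.28 ± 0.14 in MiR-29ab1-/- mice (adjusted p = 0.000456 and 9.32e-06), by the values above. Tigar stood at 8.21, 14.7, 13.97 and 13.7 CPM without DSS and at 18.1, 21.8 and 19.7 CPM after it in WT mice, and at 12.5, 13.8, 12.9 and 12.9 CPM without and 25.8, 20.1 and 22.04 CPM after it in MiR-29ab1-/- mice. Every mouse given DSS lay above every mouse without, and Tigar rose by 0.65 ± 0.17 and 0.79 ± 0.17 (adjusted p = 0.00679 and 0.0013). Ddit4, an inhibitor of mTORC1, gave 0.38 ± 0.14 in WT mice, where it rose (adjusted p = 0.0485), and 0.35 ± 0.14 in MiR-29ab1-/- mice (adjusted p = 0.0573). Its call in WT mice was lost in 8 of 19 alternatives (adjusted p = 0.0537 to 0.175), and in MiR-29ab1-/- mice it was called in 4 (adjusted p = 0.0169 to 0.0434). Ephx1, a detoxifying epoxide hydrolase, fell in MiR-29ab1-/- mice (−0.80 ± 0.24, adjusted p = 0.0134) and gave −0.46 ± 0.24 in WT mice (adjusted p = 0.14). The call of Ephx1 was lost without MiR-29ab1-/- mouse 1 or 2 after DSS (adjusted p = 0.0563 and 0.0738). Sesn1, Sesn2 and Zmat3, an RNA-binding protein, passed the test in neither genotype, though Zmat3 was called lower in MiR-29ab1-/- mice in 3 of 19 alternatives (adjusted p = 0.0241 to 0.0393). In all, 9 members rose and 8, Eda2r included, fell in both genotypes, and 10 passed in neither. Among all 16196 genes, 17.2% rose in both, 14.9% fell in both and 48.6% passed in neither. The remaining 8 members passed in 1 genotype only, which by itself is no test of a difference between the genotypes.

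**Figure D4:**
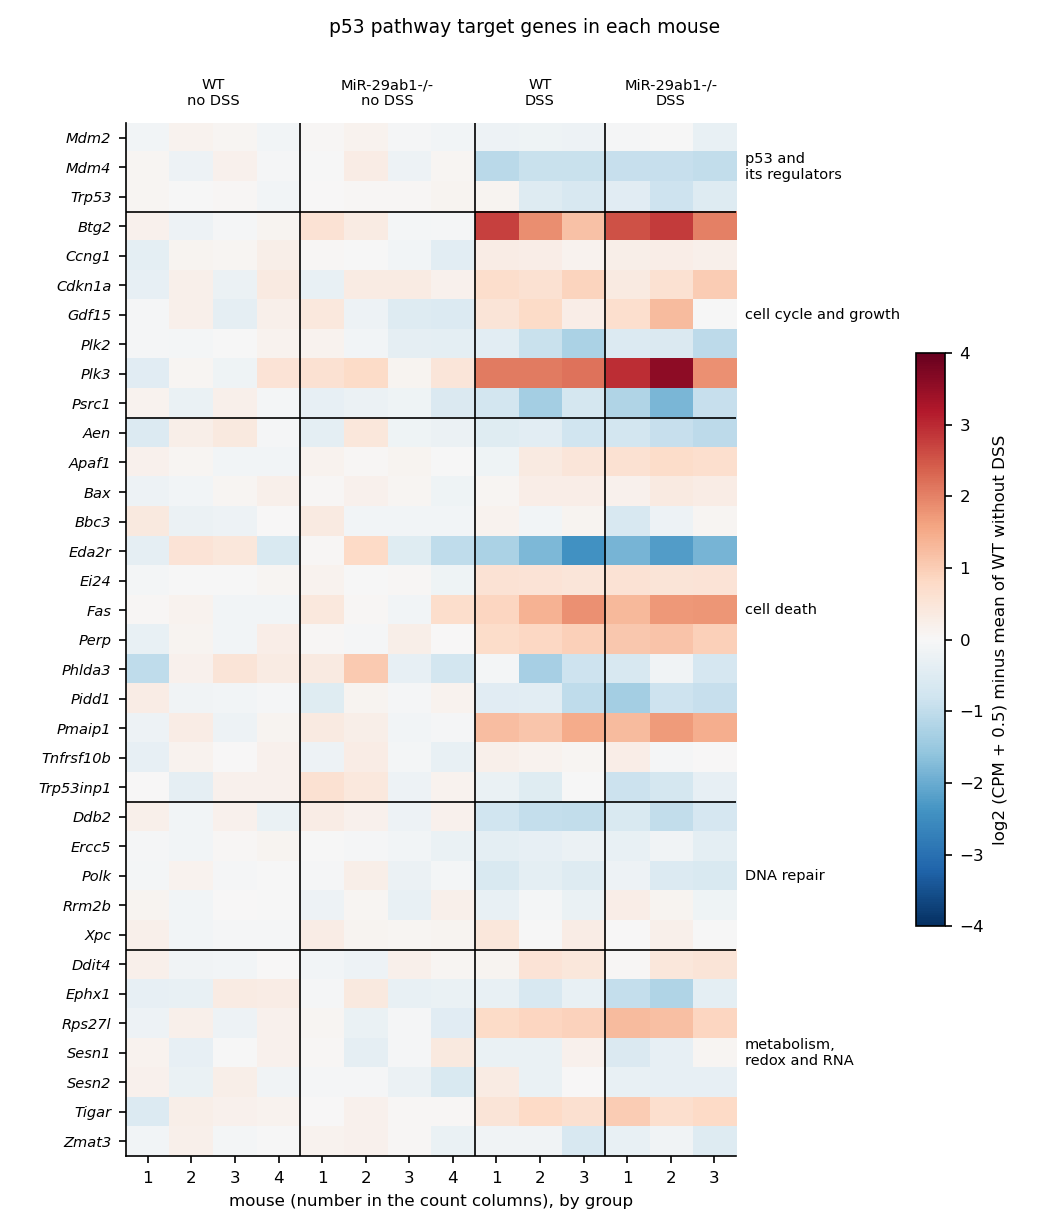
Level of the 35 genes (rows, by role) in each of the 14 mice (columns, by group) as log2 (CPM + 0.5) minus the mean of WT mice without DSS, red for higher and blue for lower. The columns of the 2 genotypes without DSS look alike, and both groups given DSS share the rise of Btg2, Plk3, Fas and Pmaip1 and the lower level of Eda2r and Mdm4.

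**Figure D5:**
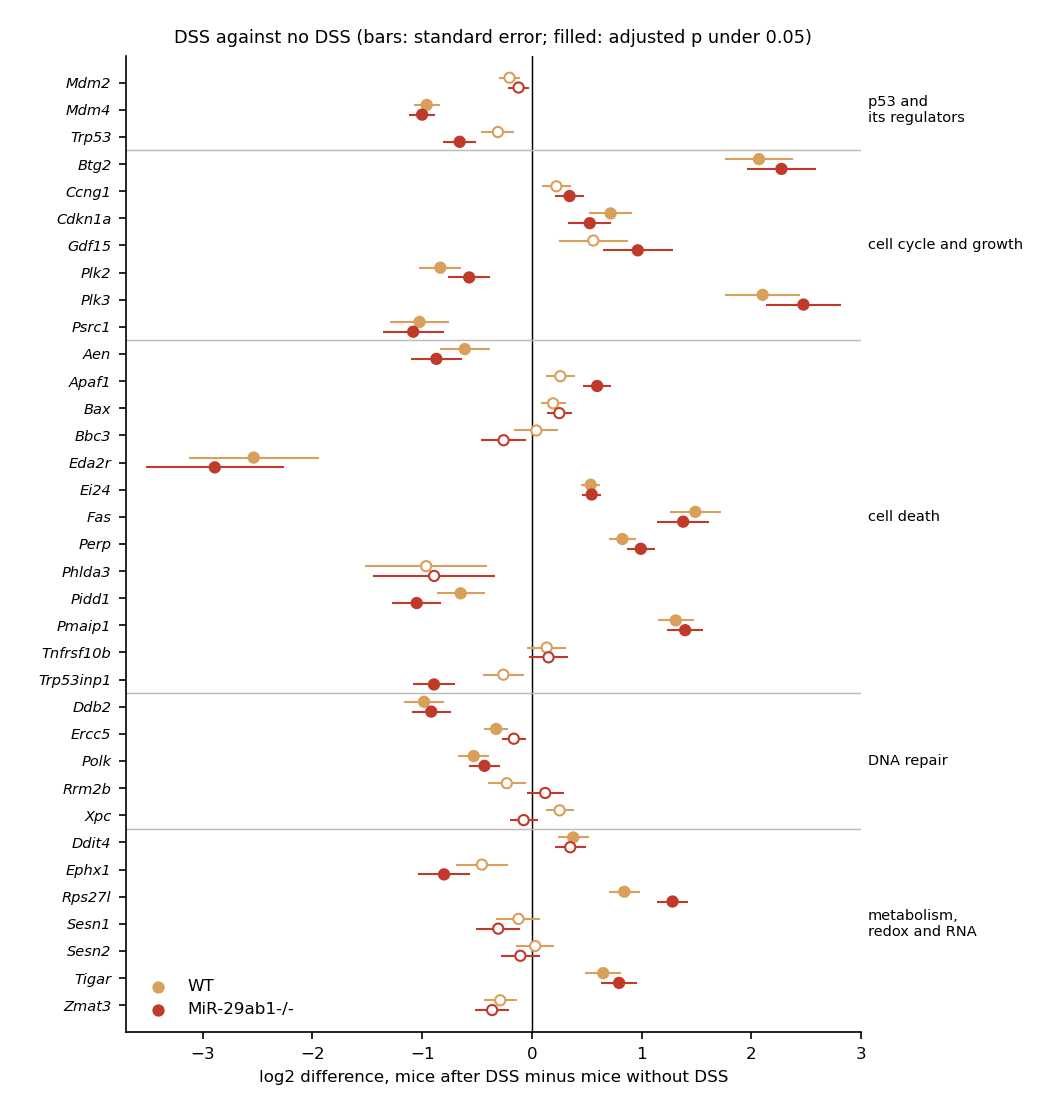
Log2 difference of mice given DSS minus mice without DSS for the 35 genes, WT in ochre and MiR-29ab1-/- in red, with standard errors, filled where the adjusted p is under 0.05. DSS and the experiment cannot be told apart here, and members of cell death lie on both sides of 0 while no filled point of DNA repair lies above it.

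Genes of the pathway outside the 35 were read from lists. Of 18 upstream kinases and cofactors, 15 were tested, and none was called between the genotypes in either experiment (edgeR, 0 without DSS and 1 after DSS at an unadjusted p under 0.05, against 3.67% and 7.23% of all genes). With DSS, 1 rose and 7 fell in WT mice, and 2 rose and 8 fell in MiR-29ab1-/- mice, against 20.0% rising and 17.9% falling among all genes in WT and 23.0% and 22.6% in MiR-29ab1-/- mice. The damage kinases Atm (−0.94 ± 0.11 and −1.33 ± 0.11, adjusted p = 1.91e-05 and 4.53e-07) and Atr (−0.82 ± 0.16 and −1.07 ± 0.16, adjusted p = 0.000979 and 8.4e-05) fell in both genotypes, and Rchy1, a further ligase for p53, rose in both (0.40 ± 0.12 and 0.35 ± 0.12, adjusted p = 0.0125 and 0.023).

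Of 34 further targets, 0 were called between the genotypes by edgeR, with 1 of 31 without DSS and 3 of 30 after DSS at an unadjusted p under 0.05 (all genes 3.67% and 7.23%). With DSS, 11 of 32 rose and 6 fell in WT mice, and 13 rose and 6 fell in MiR-29ab1-/- mice, beside the same shares of all genes (20.0% and 17.9%, 23.0% and 22.6%). Since 31 passed the filter without DSS and 30 after it, some of the 32 entered through 1 experiment only, which fixed their direction. Sfn, the epithelial cell cycle checkpoint protein 14-3-3 sigma, rose by 1.87 ± 0.27 and 2.33 ± 0.27 (adjusted p = 0.000224 and 2.8e-05), and Ptpn14, a brake on Yap signalling, fell by 1.52 ± 0.24 and 2.91 ± 0.27 on the log2 scale (adjusted p = 0.000262 and 1.3e-06).

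Cell cycle genes that p53 is known to lower through p21 and the DREAM complex gave 0 calls between the genotypes among 20 by edgeR. Of all genes, 0.0194% were called without DSS and 0.0134% after DSS. At an unadjusted p under 0.05 the list gave 0 without DSS and 1 after DSS, against 3.67% and 7.23% of all genes. With DSS none of the 20 rose, 7 fell in WT and 10 in MiR-29ab1-/- mice (all genes falling 17.9% and 22.6%), with a median log2 difference of −0.37 and −0.59 against −0.024 and −0.029 for all genes. Plk1, a mitotic kinase, fell by 0.82 ± 0.15 and 1.17 ± 0.16 on the log2 scale (adjusted p = 0.000888 and 3.65e-05). Fewer cycling cells and less of this RNA per cell cannot be told apart in bulk tissue, and the same holds for every value given here.

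Several members also belong to other programmes, whose genes are given beside them. All 8 immediate early genes listed, which respond to many stimuli within minutes and to tissue handling, rose with DSS in both genotypes, with a median log2 difference of 4.18 in WT and 4.53 in MiR-29ab1-/- mice, and Fos rose by 4.51 ± 0.28 and 4.62 ± 0.28 (adjusted p = 3.66e-08 and 2.9e-08). Their summed level ran from 298 to 499 CPM over mice without DSS and from 2752 to 7027 CPM over mice given DSS. Btg2 and Plk3 are themselves known as early response genes, and the part of that programme in their rise was not tested. Of 7 targets of the stress factor ATF4, to which Ddit4 and Sesn2 also respond, 0 rose and 2 fell in WT mice and 1 rose and 2 fell in MiR-29ab1-/- mice. Of these 7, 6 passed the filter after DSS, and the other entered through the mice without DSS, so that it had to be lower. Of 6 glucocorticoid targets, another programme that includes Ddit4, 2 rose and 1 fell in each genotype. The shares of all genes beside these counts were 20.0% rising and 17.9% falling in WT and 23.0% and 22.6% in MiR-29ab1-/- mice. None of these 3 lists held a gene called between the genotypes. At an unadjusted p under 0.05 edgeR called 1 of their genes, the ATF4 target Slc7a11 after DSS (0.63 ± 0.27, unadjusted p = 0.0423). Of all genes, 3.67% without DSS and 7.23% after DSS passed at that limit.

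Other cell types moved with DSS as well. Markers of macrophages and neutrophils summed to 14.98 to 36.3 CPM in mice without DSS. After it they summed to 62.1 to 125 CPM in WT and to 115 to 299 CPM in MiR-29ab1-/- mice. With DSS, 1 of 7 rose in WT and 4 of 7 in MiR-29ab1-/- mice, where 20.0% and 23.0% of all genes rose. Only 4 of the 7 passed the filter in the mice without DSS. The others entered the fit through the mice given DSS, so that they had to be higher. T cell markers, at 29.3 to 151 CPM without and 43.1 to 139 CPM after DSS, overlapped, and 0 of 7 were called by edgeR in either genotype (0 also at an unadjusted p under 0.05). Markers of colon epithelium rose in 7 of 10 cases in each genotype (20.0% and 23.0% of all genes), with a median log2 difference of 0.68 in WT and 0.71 in MiR-29ab1-/- mice. Their sums ran from 4465 to 8315 CPM without and from 16421 to 21572 CPM after DSS. Muc2 is 1 of the 10 and, by its means given above, made up much of the rise of the sum in WT mice. Of the 4 B cell markers, 0 fell in WT and 3 in MiR-29ab1-/- mice, where 17.9% and 22.6% of all genes fell. Their sums ran from 2.21 to 15.1 CPM without and from 1.08 to 7.59 CPM after DSS. Only 2 of the 4 passed the filter in the mice given DSS. The others entered the fit through the mice without DSS, so that they had to be lower. Between the genotypes after DSS, all 7 macrophage and neutrophil markers and all 7 T cell markers lay higher in MiR-29ab1-/- mice (median log2 difference 0.83 and 0.56). Of these, edgeR called 0 and, at an unadjusted p under 0.05, 1 and 0, against 7.23% of all genes. Fas and Pmaip1 are expressed by immune cells too, and the part of cell composition in their rise, or in any genotype value after DSS, was not tested.

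Since the deleted miRNAs share 1 seed, their sequences and the sites for them in the members are shown last. RefSeq gives the mature strands as follows, on the − strand of chromosome 6, with the seed (bases 2 to 8) in capitals.
mmu-miR-29a-3p: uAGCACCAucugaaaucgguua
mmu-miR-29b-3p: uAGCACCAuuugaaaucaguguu

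Matches to the seed (TGGTGCT, or TGGTGCTA where an A follows) were looked for in the untranslated 3′ ends of coding transcripts (GENCODE vM21, GRCm38). At least 1 was found in 9 of the 35 members, and in 13.3% of 21877 genes. They were Cdkn1a, Bbc3 (2 sites), Trp53inp1, Eda2r, Zmat3, Fas, Btg2, Xpc and Apaf1, and the site of Trp53inp1 was the single one followed by A. The 3 sites shown are those of Cdkn1a and of the members with a site and an unadjusted p under 0.05 between the genotypes, with the match in capitals and 11 bases on either side.
Cdkn1a: gaccccaaagcTGGTGCTcaataaatact
Trp53inp1: ttcttcagggtTGGTGCTAatgaggctaga
Apaf1: ttacttctttaTGGTGCTgaagattgaag

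The matches lie at chr17:29100694-29100700 (+ strand) in Cdkn1a, chr4:11171241-11171248 (+ strand) in Trp53inp1 and chr10:90990026-90990032 (− strand) in Apaf1. Among the 9, 8 lay above 0 in MiR-29ab1-/- mice without DSS, up to 0.32 on the log2 scale for Fas, and Eda2r lay at −0.11, but none was called. Of all 35 members 21 lay above 0, and of all 15441 genes tested 7651. Bbc3 (0.0042) changed sign without MiR-29ab1-/- mouse 1 or without WT mouse 2, 3 or 4. Zmat3 (0.031) did so without MiR-29ab1-/- mouse 1 or 2, and Eda2r without MiR-29ab1-/- mouse 3 or 4 or WT mouse 2 or 3. After DSS, of the 8 tested, Btg2 (0.42 ± 0.43), Apaf1 and Fas lay above 0 and the other 5 below. Without WT mouse 1 after DSS, Fas (−0.024) and Zmat3 (0.032) changed sign, while Btg2 (0.93) and Apaf1 (0.22) stayed above 0. Zmat3 also changed sign without WT mouse 2 or MiR-29ab1-/- mouse 3 after DSS. Cdkn1a did so without WT mouse 3 or MiR-29ab1-/- mouse 1 after DSS. Of 6 reported miR-29 targets that bear on p53, none was called by edgeR. At an unadjusted p under 0.05 it called 1 without DSS and 2 after DSS, against 3.67% and 7.23% of all genes. Mcl1, a survival relative of Bcl2, gave 0.26 ± 0.11 and 0.36 ± 0.13 (unadjusted p = 0.0333 and 0.0196), and Cdk6, a kinase of the cell cycle, gave −0.46 ± 0.16 after DSS (unadjusted p = 0.018).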

How the data were processed

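RNA was extracted with TRIzol and libraries were made with a strand-marking kit (NEBNext Ultra Directional). The submitters' processing notes name HISAT2 and DESeq2, with no version, and the counting tool, the use of strand and the genome build are not given in the sources used here, so reads of genes overlapping on opposite strands may be mixed. What the authors deposited are raw read counts for each gene and a gene length (another value per gene, in bases), 1 table per experiment. Their FPKM columns (14) and the columns of their own comparison (means, fold changes and p values) were not used. Gene positions equal those of GENCODE vM21 on GRCm38 for 99.4% of shared genes without DSS and 98.3% after DSS, with 35 and 33 of the 35 members among them.

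The test was that of edgeR 4.0.16 (R 4.3.3), with filterByExpr (minimum count 10, minimum total 15), TMM, and robust glmQLFit and glmQLFTest, with Benjamini-Hochberg adjustment over all genes tested. Genotypes were compared within each table. DSS contrasts and the difference of genotype effects came from 1 model of all 14 mice over the Ensembl genes in both tables. CPM were scaled by TMM over all 14 mice, and 3 reads are 0.141 to 0.195 CPM. The SE is the log2 difference divided by the root of F. The scripts were tested on simulated data. No 2 mice of a group had counts that agreed within sampling noise.

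The members and lists were chosen with earlier results of these data known. Values in full are given for Trp53, Mdm2, Mdm4, Cdkn1a, members among the 10 smallest p of those called, and members with an unadjusted p under 0.05 between genotypes. From lists, examples come from the 2 smallest p in each direction, and Muc2 was chosen after its values were seen. The alternatives were DESeq2 1.42.0, RLE factors, other count filters, all mice in 1 model, a replicate block, genes of equal length in both tables and each mouse left out. Columns after DSS carry no mouse numbers of the labels and were mapped to groups only. The labels name separate mice, and p values measure the spread between them. Promoter and miRNA sequences are from RefSeq (GRCm38.p6).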

Additional observations from a re-analysis of the deposited data

Results flagged for a closer look

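Among 72 groups of 4 mice without DSS (35 members and Lncpint in 2 genotypes), 4 held a mouse far from the other 3, measured as its gap to the nearest mouse over the range of the group. Chance flags about 1 group in 20. Bbc3 stood at 15.2 CPM in MiR-29ab1-/- mouse 1 and at 10.9 CPM in each of the others, a gap of 0.994 of the range. Xpc in the same mouse stood at 22.6 CPM against 19.02 to 19.6 CPM (0.834 of the range). Tigar stood at 8.21 CPM in WT mouse 1 against 13.7 to 14.7 CPM (0.840), and Pidd1 in that mouse at 12.02 CPM against 8.84 to 9.32 CPM (0.847). The mouse numbered 1 in each genotype gave all 4, and none of the 4 genes was called between the genotypes. Groups of 3 mice after DSS were not examined in this way.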

How the results depend on the processing

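The count of members with an adjusted p under 0.05 between the genotypes stayed at 0 under every alternative in both experiments, except that it was 1 (Plk3, adjusted p = 0.0415) after DSS without MiR-29ab1-/- mouse 3. The count at an unadjusted p under 0.05 was 0 in place of 1 without DSS when all 14 mice were in 1 model, and 6 in place of 3 after DSS with no filter on low counts. Leaving out each mouse in turn gave 0 to 2 without DSS, 0 to 5 after DSS and 0 to 3 for the difference between the experiments, while the share of all genes passing ran from 3.07% to 4.39%, 3.16% to 16.6% and 2.37% to 8.76%. The 5 came without MiR-29ab1-/- mouse 3 (16.6% of all genes) and the 0 after DSS without mouse 2 (3.16%). No genotype call of a single member (Plk3, Apaf1, Trp53inp1, Sesn2) was kept in every alternative. The median difference ran from −0.0090 to 0.047 without DSS and from −0.021 to 0.045 after DSS, and from −0.049 to 0.10 for the difference between the experiments.

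In the DSS contrasts, 14 of 19 calls in WT and 17 of 23 in MiR-29ab1-/- mice were kept in all 19 alternatives, Eda2r among both, and no called member changed sign. Mdm2 was called lower in WT mice with at least 10 reads in every library (adjusted p = 0.0488). Leaving out a mouse gave 9 to 11 rising and 6 to 9 falling members in WT, and 9 to 13 and 9 to 12 in MiR-29ab1-/- mice. The median in WT mice was −0.016 with at least 10 reads in every library and −0.12 with genes of equal length only (which leaves out Pmaip1 and Fas), and ran from −0.054 to 0.14 with a mouse left out, so it has no stable sign. With the replicate block without DSS, 1 member passed before adjustment and 0 passed after it, with a median of 0.013. Same-numbered mice deviated no more alike (r −0.19 to 0.15) than differently numbered ones (r −0.28 to 0.26). With 4 such pairs this cannot tell whether equal numbers mark a pairing. No paired analysis was possible after DSS because the columns do not carry the mouse numbers. With the gene length of the other table, the level of Fas per length in WT mice without DSS was 3.05 in place of 2.67. The intervals of Eda2r (19 to 99 reads per mouse) and Phlda3 (18 to 94) span more than a 2-fold change without DSS.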
